A study of Mus musculus with 16 samples.

Results

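The genes described here are the nuclear genes of respiratory complex I in the adult mouse heart. They were chosen by name, as every gene of the deposited table whose symbol begins with Nduf and does not hold "-ps", which gave 46 of 16118 genes. By textbook role, 7 of them encode core subunits, 29 accessory subunits and 8 assembly factors (Ndufaf1 to Ndufaf8). The remaining pair, Ndufa4 and Ndufa4l2, carry the family's name without being counted as subunits here. A row that had no name in the table, and that the GENCODE annotation calls Ndufb1-ps, was left out by the rule. Its values were 78.1 ± 9.05 in control atria and 185 ± 8.11 in control ventricles (SD, n = 4).

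RNA was sequenced from the atria and the ventricles of 8 adult male littermate mice, which gave 16 libraries in 4 groups of 4. All mice, controls included, were Meis1flox/flox and Meis2flox/flox and were harvested 2 weeks after tamoxifen. The idKO mice were alpha-MHC-MerCreMer tg/wt, so that a tamoxifen-activated Cre recombinase was driven by a cardiomyocyte promoter, and the control mice were wt/wt and had no Cre. What the transgene and active Cre do by themselves therefore cannot be told apart from loss of MEIS1 and MEIS2, and cells other than cardiomyocytes were not targeted. The protocols cover fetal and adult hearts, and these libraries were taken as adult because their genotype label names the inducible Cre. The exact age of the mice is not given in the sources used here.

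Complex I (NADH:ubiquinone oxidoreductase) is the entry point for NADH electrons into the respiratory chain, and heart muscle, which lives on oxidative metabolism, is rich in it. The matrix arm holds the flavin and the iron-sulphur clusters that carry electrons to ubiquinone, and the membrane arm pumps protons. The core subunits of the membrane arm are made from mitochondrial DNA (the mt-Nd genes), while all core subunits of the matrix arm and all accessory subunits come from the nucleus. Assembly factors help to build or modify the complex and are not part of the finished enzyme.

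The libraries held 13.1 to 21.8 M (mega) reads in genes. A value below is the deposited one, reads per mega read of an effective library size set by the authors' scaling. The libraries carried the markers of their labelled chamber, with all 5 atrial cardiomyocyte markers higher and all 5 ventricular ones lower in control atria. In ventricles, Meis2 fell from 26.8 ± 4.24 to 8.82 ± 0.848 (SD, n = 4), with a limma adjusted p of 2.0e-05, while Meis1 was 27.3 ± 0.767 in controls and 23.1 ± 2.29 in idKO mice (adjusted p = 0.236). In atria neither passed the test.

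Every one of the 46 genes passed the filter on low values in each comparison. Per kilobase of transcript, the only scale on which genes are compared with each other, the subunits stood far above the factors that assemble them. In control ventricles the median of the core subunits was 472 per kilobase, and Ndufs8 was the lowest of them at 251. The accessory subunits ran from 106 for Ndufb4 to 1069 for Ndufb8, with a median of 447. The assembly factors ran from 18.02 for Ndufaf6 to 37.2 for Ndufaf2, with a median of 24.6, so that the highest of them lay below the lowest subunit. Ndufa4, whose protein is now placed with complex IV, had the highest level of all members at 1749 ± 57.5 per kilobase (SD, n = 4). Ndufa4l2, a relative of Ndufa4 that is induced by hypoxia, had the lowest at 13.9 ± 3.46.

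The transcript length moves some of these values. With the longest principal transcript in place of the shortest, Ndufb2 in control ventricles went from 553 to 57.6 per kilobase and Ndufab1 from 253 to 103. Ndufab1, the mitochondrial acyl carrier protein, and Ndufb2, a membrane arm subunit, are the members whose level moved most with this choice. The level of Ndufaf2 is uncertain too. It rests on a transcript of 678 bases, fewer than the 1955 exonic bases that Ndufaf2 shares with a gene on the opposite strand. The order of the 36 subunits by level was nearly the same in all groups, with Spearman's rho from 0.945 to 0.997 between group means across genes, which are not independent replicates. Replicates of a group differed little for subunits. The median coefficient of variation was 4.29% to 6.98% for core and 4.78% to 8.59% for accessory subunits over the 4 groups, and 8.28% to 10.6% for the less abundant assembly factors.

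**Figure D1:**
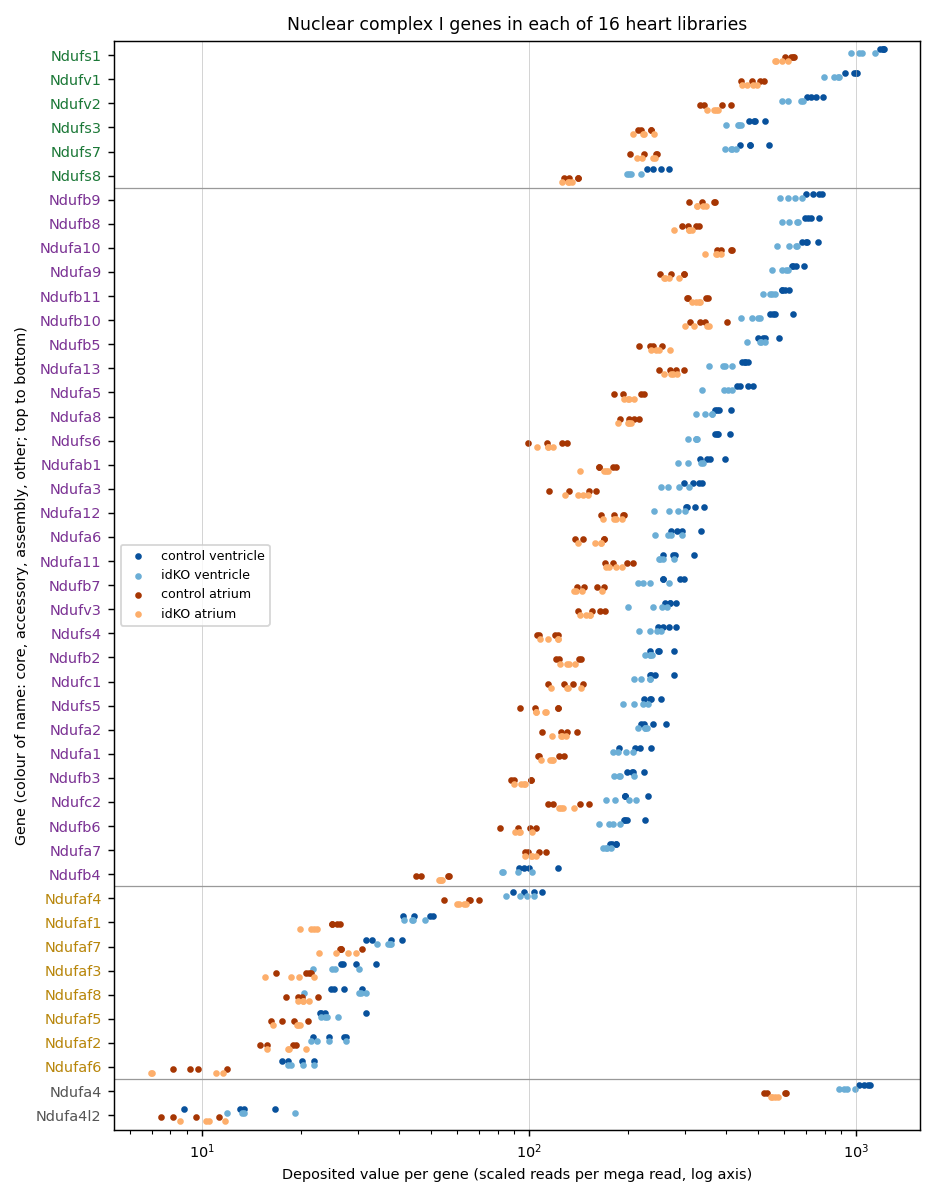
Deposited value (scaled reads per mega read, logarithmic horizontal axis) of 45 genes in each of 16 libraries, with 4 points per group. Names are ordered by class and by their mean in control ventricles; within each genotype the atrial points lie to the left of the ventricular points for all 35 subunits shown, and the assembly factors lie toward the left of the axis.

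The first question the design allows is how the chambers differ. In control mice all 46 genes were lower in atria than in ventricles at a limma adjusted p under 0.05, where 28.7% of the 14871 genes tested were called lower. The median log2 difference (atrium minus ventricle, on log2(value + 1)) was -1.01 for core subunits, -0.92 for accessory subunits and -0.52 for assembly factors, against 0.02 for all genes tested. In idKO mice all 46 were again lower, where 27.1% of genes were, with medians of -0.85, -0.81 and -0.45 in the same order and 0.02 for all genes. Both comparisons use the authors' scaling, and the choice matters here. With values taken as a share of all reads, the median of all genes tested moved to 0.51 in control and 0.44 in idKO mice, 37 and 34 members were called lower, and 6 members in each had values above 0. On that scale 9.37% of genes were called lower in control and 10.4% in idKO mice, and lower calls made up 12.4% and 14.3% of all calls, against 50.4% and 50.3% with the authors' scaling.

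A change of scaling moves all genes of a library nearly alike, so that the order of the classes can hardly change. Relative to the median of all genes, in control mice core subunits lay -1.03 from that median with the authors' scaling and -0.95 as a share of reads, accessory subunits -0.94 and -0.86, and assembly factors -0.54 and -0.49. All 7 core subunits were called lower on both scales and in both genotypes. Of the 29 accessory subunits, 27 kept the call as a share of reads in control mice, Ndufa11 and Ndufc2 being the exceptions, and 24 did in idKO mice, where Ndufa12, Ndufa13 and Ndufb10 lost it too. Of the assembly factors, Ndufaf1 and Ndufaf6 kept it in both genotypes. The direction of Ndufaf2, Ndufaf3, Ndufaf5, Ndufaf7, Ndufaf8 and Ndufa4l2 turned on that scale, with log2 differences between 0.02 and 0.19 in control mice, none of them called.

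Ndufs6, a zinc-binding accessory subunit at the junction of the NADH-oxidising module and the rest of the matrix arm, differed most. In control mice its values were 99.2, 131, 126 and 113 in atria and 369, 412, 377 and 375 in ventricles. In idKO mice they were 114, 106, 119 and 114 in atria and 325, 305, 323 and 323 in ventricles. The groups lay far apart in both genotypes. The log2 difference was -1.71 ± 0.07 (SE) in control mice (adjusted p = 4.2e-13) and -1.49 ± 0.07 in idKO mice (adjusted p = 3.6e-12). As a share of the summed subunits, which does not depend on the scaling, Ndufs6 made up 1.43% ± 0.0714 in control atria and 2.35% ± 0.0259 in control ventricles (SD, n = 4), with no overlap.

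The other subunits lay closer together. After Ndufs6 came Ndufa9, an accessory subunit near the ubiquinone site, at -1.23 ± 0.06, and Ndufb8 of the distal membrane arm at -1.21 ± 0.06 in control mice. The smallest subunit difference was that of Ndufa11, a membrane arm subunit, at -0.57 ± 0.07, from 282 ± 25.9 in control ventricles to 189 ± 17.1 in control atria. Ndufc2 at -0.64 ± 0.09, Ndufb10 at -0.73 ± 0.08 and Ndufa13 at -0.74 ± 0.06 followed. Ndufb5 and Ndufb3, both of the membrane arm, were among those with the smallest p. Ndufb5 was so in control mice, at -1.17 ± 0.06, and Ndufb3 in idKO mice, at -1.01 ± 0.06. In control mice Ndufb3 was at -1.13. In idKO mice the core subunits ran from -0.94 for Ndufs3 to -0.65 for Ndufs8, the accessory subunits from Ndufs6 to Ndufa11 at -0.51, and the assembly factors from -1.06 for Ndufaf6 to -0.35 for Ndufaf5. By position in the enzyme, the 16 matrix arm subunits had a median of -1.005 and the 19 membrane arm subunits one of -0.91, leaving out Ndufab1, which sits in both arms. The sum of the matrix arm over that of the membrane arm was 1.12 ± 0.021 in control atria and 1.19 ± 0.0139 in control ventricles (SD, n = 4), without overlap.

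Among core subunits the differences in control mice ran from -1.12 for Ndufs3 to -0.86 for Ndufs8. Ndufv1, which binds NADH and the flavin, had values of 444, 479, 521 and 509 in control atria and 925, 1004, 981 and 995 in control ventricles. For each of the 7 core genes every atrial library lay below every ventricular library in both genotypes. The groups did not overlap for 45 of the 46 members in control and 44 in idKO mice, where 25.9% and 24.2% of genes were lower without overlap.

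Among assembly factors, Ndufaf6 at -0.94 ± 0.15, Ndufaf1 at -0.83 ± 0.08 and Ndufaf4, which acts on the ubiquinone-binding module, at -0.63 ± 0.08 lay within the range of the subunits in control mice. Ndufaf1, a partner of Ecsit, Acad9 and Tmem126b in the assembly of the membrane arm, had 25.0, 24.9, 26.4 and 25.9 in control atria and 49.9, 50.6, 44.4 and 41.1 in control ventricles, which did not overlap. Ndufaf3, Ndufaf2, which binds a late intermediate, and Ndufaf5 followed at -0.52 ± 0.12, -0.52 ± 0.11 and -0.43 ± 0.11. The smallest differences were those of Ndufaf7, a methyltransferase of the mitochondrial matrix, at -0.36 ± 0.09, and of Ndufaf8, a partner of the hydroxylase Ndufaf5, at -0.40 ± 0.12 (adjusted p = 0.0059). Of 11 other complex I assembly factors outside the Nduf name, all were called lower in control atria with the authors' scaling (median -0.69). In idKO atria 10 were (median -0.68). The largest difference in control mice was that of Ecsit at -1.01. Of all genes tested 28.7% were called lower in control and 27.1% in idKO atria. As a share of reads the summed list was 0.0397% ± 0.00178 in control atria and 0.0439% ± 0.00176 in control ventricles (SD), without overlap. Calls of these single factors on that scale are not given here, and those above may depend on the scaling.

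**Figure D2:**
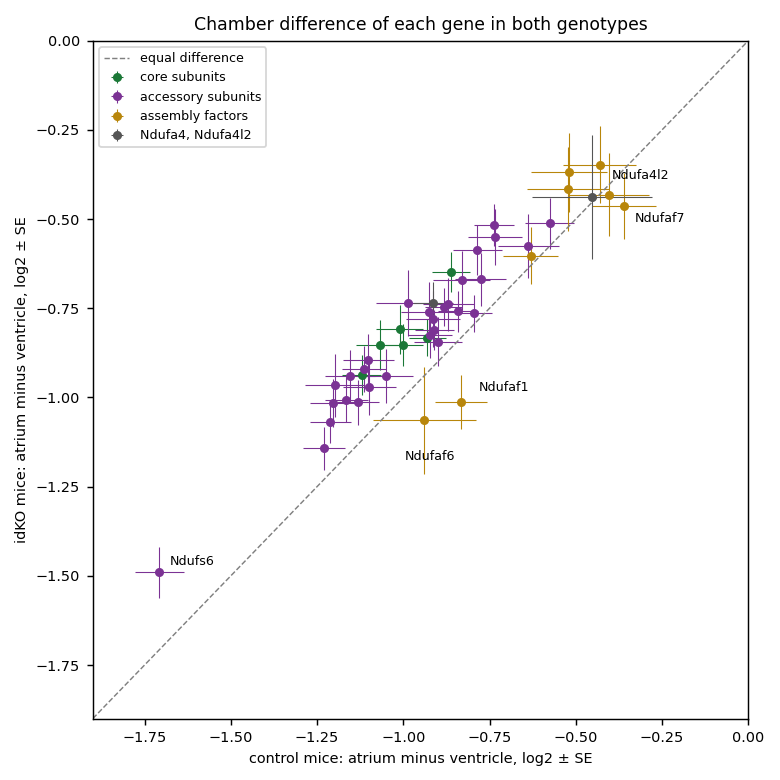
Log2 difference between atrium and ventricle (atrium minus ventricle, ± SE) of 45 genes in control mice (horizontal axis) and idKO mice (vertical axis), with the dashed line marking equal differences. Ndufs6 stands apart at the lower left in both genotypes, and the subunits lie slightly above the line.

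Genes that work with complex I differed between chambers as well. The 7 mt-Nd genes were all called lower in control atria, with a median of -1.35 against -0.91 for the 46 nuclear genes. The summed mt-Nd value was 6.82 ± 0.361 times the summed nuclear subunits in control atria and 8.52 ± 0.176 times in control ventricles (SD, n = 4). Of 45 nuclear genes of complexes II to V, 41 were called lower in control atria (median -0.99). So were 74 of 78 genes of mitochondrial ribosomal proteins (median -0.85), where 28.7% of all genes tested were. The summed complex I subunits stood in almost the same proportion to complexes II to V in every group, from 0.326 ± 0.00436 in control atria to 0.332 ± 0.00523 in control ventricles. Their ratio to the summed assembly factors was 40.4 ± 3.33 in control atria and 53.0 ± 2.44 in control ventricles, without overlap, and this ratio does not depend on the scaling.

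Regulators of these genes were read from a list of 15. In control atria 10 were called lower and 1 higher with the authors' scaling, and the median was -0.55. Of all genes tested 28.7% were called lower and 28.2% higher. The lower ones included the receptors Esrra, Esrrb, Esrrg and Ppara, the coactivators Ppargc1a and Ppargc1b, Tfam, Tfb2m and Polrmt, which transcribe mitochondrial DNA, and Tfb1m, which methylates mitochondrial ribosomal RNA. The higher one was Nrf1, a factor known for binding promoters of respiratory genes, at 0.31 (adjusted p = 0.0171). As a share of reads the summed list was 0.0601% ± 0.00242 in control atria and 0.0574% ± 0.00225 in control ventricles (SD), with overlap. The summed list was thus not lower in atria on that scale. Calls of single regulators as a share of reads are not given here, and those above may depend on the scaling.

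Fewer cells of a type and less RNA per cell cannot be told apart in bulk tissue, and the chambers differed in their cells. In control atria all 8 fibroblast, all 5 adipocyte, all 5 mesothelial, all 5 Schwann cell and all 4 lymphocyte markers were called higher. Of all genes tested 28.2% were. Other lists were mixed. Of 8 endothelial markers 3 were called higher and 4 lower, and of 7 smooth muscle and pericyte markers 3 and 2. Of 7 macrophage markers 2 were called higher and 0 lower. The summed fibroblast markers ran from 1451 to 2342 in control atria and from 1021 to 1221 in control ventricles, and the summed adipocyte markers from 37.2 to 259 and from 0.813 to 1.76. The 9 shared cardiomyocyte markers summed to 61190 ± 4660 in control atria and 85270 ± 2740 in control ventricles with the authors' scaling. As a share of reads the direction was the opposite, at 5.78% ± 0.308 and 5.45% ± 0.205, with overlap. The part of these cell differences in the lower atrial values was not tested. Reads of mitochondrially encoded genes were 17.2% ± 0.768 of the library in control atria and 30.9% ± 0.742 in control ventricles.

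The second question is what changed in the idKO ventricles. One gene of the 46, Ndufs6, fell at a limma adjusted p under 0.05, where 1.5% of the 13144 genes tested were called lower and 2.03% in either direction. Its values were 369, 412, 377 and 375 in control ventricles and 325, 305, 323 and 323 in idKO ventricles, so that every idKO library lay below every control library. The mean fell from 383 ± 19.6 to 319 ± 9.32 (SD, n = 4), a level 83.3% as high (log2 fold change -0.26 ± 0.06 SE, adjusted p = 0.0273). The call was lost without any 1 of control replicates 2, 3 and 4 or idKO replicates 1, 2 and 3, and as a share of reads (log2 fold change -0.16, adjusted p = 0.113). Its share of the summed subunits was 2.35% ± 0.0259 in control and 2.23% ± 0.0592 in idKO ventricles, also without overlap.

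The rest of the complex had small values of the same sign. All 7 core and all 29 accessory subunits had log2 fold changes below 0, while 5 of 8 assembly factors did, and 52% of all genes tested. The median was -0.21 for core subunits, -0.15 for accessory subunits and -0.06 for assembly factors, against -0.01 for all genes. At an unadjusted p under 0.05, all 7 core subunits, 18 accessory subunits and Ndufa4 were lower, 26 genes in all, where 9.11% of genes tested were. None of the 8 assembly factors was. In 20 members, all 7 core subunits among them, every idKO ventricle lay below every control ventricle, where 5.81% of genes did.

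The size of the call depended on the method. DESeq2 on the recovered reads called 11 members lower, where it called 2.6% of genes lower. They included Ndufs1, Ndufs3, Ndufs8, Ndufv1, Ndufa13, Ndufb8, Ndufb9, Ndufb10, Ndufs6 and Ndufa4. As a share of reads no member was called, 34 of 46 had values below 0, and the medians were -0.11 for core, -0.04 for accessory and 0.04 for assembly genes beside 0.09 for all genes. Lower calls made up 41.2% of all calls on that scale and 73.8% with the authors' scaling.

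Ndufs8, a core subunit that carries iron-sulphur clusters on the way to ubiquinone, came closest to Ndufs6. Its values were 239, 268, 253 and 229 in control ventricles and 219, 199, 202 and 205 in idKO ventricles (log2 fold change -0.26 ± 0.06, adjusted p = 0.0535). The groups did not overlap, and the idKO mean stood at 83.4% of the control mean. Ndufs1, the largest subunit of the matrix arm and the bearer of several clusters, had 1210, 1184, 1213 and 1205 in control ventricles and 1021, 966, 1043 and 1138 in idKO ventricles (adjusted p = 0.100). The 4 control libraries of Ndufs1 lay within a narrow range, and all 4 idKO libraries were lower.

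Ndufs3, a core subunit of the ubiquinone-binding module, had 487, 527, 492 and 470.3 in control and 437, 400, 434 and 443 in idKO ventricles. Ndufs7 had 439, 539, 472 and 472 in control and 429, 395, 413 and 418 in idKO ventricles. Neither gene overlapped between the genotypes, though the highest idKO and lowest control values of Ndufs7 lay close together. In Ndufv1 the idKO values were 855, 799, 882 and 888, below the control values given above. Ndufv2, its partner in the NADH-oxidising module, had 708, 789, 751 and 727 in control and 677, 593, 619 and 686 in idKO ventricles. The log2 fold changes of these 4 genes ran from -0.21 to -0.19, and their adjusted p from 0.0993 to 0.131.

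Among accessory subunits, Ndufb10 and Ndufb9 of the distal membrane arm and Ndufa13 of the membrane arm had the next smallest p after Ndufs6. Ndufb10 had 543, 642, 565 and 555 in control and 500, 445, 480.4 and 509 in idKO ventricles (log2 fold change -0.25 ± 0.07, adjusted p = 0.0803). Ndufa13 had 446, 466, 458 and 457 in control and 390, 355, 397 and 416 in idKO ventricles (-0.23 ± 0.06, adjusted p = 0.0635). Ndufb9 had 703, 766, 785 and 739 in control and 619, 585, 651 and 683 in idKO ventricles (-0.24 ± 0.06, adjusted p = 0.0743). In these 3 genes no idKO library reached the lowest control library. The smallest accessory value was that of Ndufa7, a matrix arm subunit, at -0.06 ± 0.05, with overlap between the groups.

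The assembly factors overlapped between genotypes in ventricles without exception. Ndufaf3, which works with Ndufaf4, had the most negative value at -0.19 ± 0.11 (adjusted p = 0.468), and Ndufaf8 the most positive at 0.05 ± 0.13. Ndufaf8 had 25.3, 30.8, 24.7 and 27.1 in control and 30.1, 20.5, 31.7 and 30.6 in idKO ventricles, so that a low library stood among 3 higher ones. The ratio of summed subunits to summed assembly factors was 53.0 ± 2.44 in control and 48.2 ± 0.818 in idKO ventricles (SD, n = 4), with the control libraries between 50.5 and 56.1 and the idKO libraries between 47.2 and 48.9. These ranges did not overlap.

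Ndufa4 had 1022, 1104, 1082 and 1059 in control and 937, 887, 915 and 993 in idKO ventricles (log2 fold change -0.19 ± 0.06, adjusted p = 0.110), with no overlap. Ndufa4l2 had the most positive value of all members, 0.15 ± 0.18, on 13.0, 16.7, 8.80 and 13.5 in control and 13.4, 19.2, 13.2 and 11.9 in idKO ventricles, and its groups overlapped. Its chamber difference of -0.45 ± 0.17 in control mice had the highest adjusted p of the 46 genes (0.0338).

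Related genes had values of the same size in ventricles. Of 45 genes of complexes II to V, 44 had log2 fold changes below 0, 2 were called lower and the median was -0.15; of 78 mitochondrial ribosomal proteins, 68 were below 0, 3 were called lower and the median was -0.13. The 7 mt-Nd genes were all below 0 (median -0.16) and none was called. The ratio of complex I subunits to complexes II to V was 0.332 ± 0.00523 in control and 0.329 ± 0.0026 in idKO ventricles, and the ranges overlapped. None of 15 regulators of mitochondrial gene transcription was called. Esrra, an orphan nuclear receptor that drives respiratory chain genes, was at -0.22 (adjusted p = 0.155) and its coactivator Ppargc1a at -0.02. Fibroblast markers had a median of 0.22 with none of 8 called, and their summed level ran from 1085 to 1752 in idKO against 1021 to 1221 in control ventricles. The 9 shared cardiomyocyte markers summed to 83600 ± 5368 in idKO and 85270 ± 2740 in control ventricles, and as a share of reads to 5.73% and 5.45%, the opposite direction. Both pairs of ranges overlapped. One of the 9, the calcium release channel gene Ryr2, fell (log2 fold change -0.66, adjusted p = 0.00111). Of the 5 ventricular cardiomyocyte markers, Fhl2, Irx4 and Lbh fell, and the median was -0.57. Their summed level was 15030 to 17110 in idKO and 18200 to 19490 in control ventricles, without overlap, and as a share of reads it was also lower, at 1.07% to 1.12% against 1.16% to 1.25%. Of the 4 atrial markers tested, Nppa, the atrial natriuretic peptide gene, rose by 2.45 on the log2 scale (adjusted p = 3.2e-04). Of the 4 mesothelial markers tested Msln fell, and the list summed to 8.89 to 25.2 in idKO and 25.8 to 34.4 in control ventricles. The part of these genes and cells in the values of the complex was not tested.

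**Figure D3:**
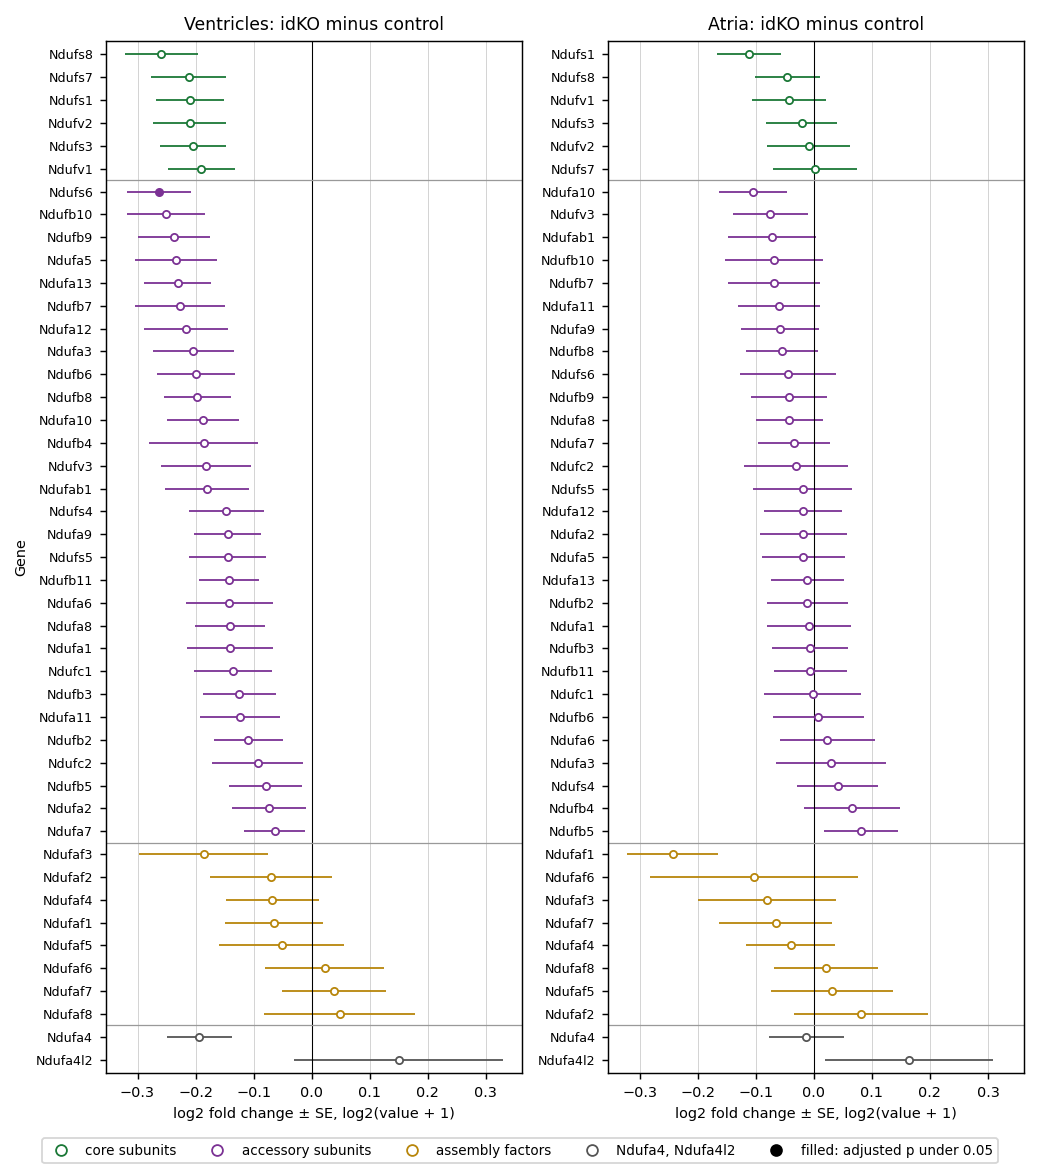
Log2 fold change (idKO minus control, ± SE, on log2(value + 1)) of 45 genes in ventricles (left) and atria (right), grouped by class, with filled points for an adjusted p under 0.05. In ventricles all core and accessory subunits shown lie below 0 and Ndufs6 alone is filled, while in atria no point is filled.

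In atria none of the 46 genes was called, where 0.0207% of the 14523 genes tested were. The count was also 0 with edgeR and with DESeq2, and 1 member had an unadjusted limma p under 0.05, where 2.05% of genes were lower at that level. The median log2 fold change was -0.04 for core subunits, -0.02 for accessory subunits and -0.05 for assembly factors, against 0.00 for all genes. The member with the unadjusted p was Ndufaf1, with 25.0, 24.9, 26.4 and 25.9 in control and 22.0, 21.6, 19.9 and 22.4 in idKO atria. All 4 idKO values lay below all 4 control values (log2 fold change -0.24 ± 0.08, limma adjusted p = 0.966), where 1.3% of genes did. Its ventricular values overlapped. Among core subunits the atrial values ran from -0.11 ± 0.06 for Ndufs1 to 0.00 ± 0.07 for Ndufs7, and among accessory subunits from -0.10 ± 0.06 for Ndufa10 to 0.08 ± 0.06 for Ndufb5. The most positive assembly factor was Ndufaf2 at 0.08 ± 0.12.

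The chamber difference was also compared between genotypes as an interaction (the atrium minus ventricle difference in idKO mice minus that in control mice). It shares its libraries with the comparisons above and is no separate support for them. No member was called, where 0.296% of 14871 genes tested were, and none was with edgeR, DESeq2 or the mouse as a block. All 36 subunits had interaction values above 0, where 52.2% of genes did, with medians of 0.18 for core and 0.14 for accessory subunits, and assembly factors had a median of 0.00 beside 0.01 for all genes. At an unadjusted p under 0.05 there were 7 members, namely Ndufs3, Ndufs7, Ndufs8, Ndufa13, Ndufb9, Ndufs6 and Ndufa4, all above 0, where 3.8% of genes were. The smallest p was that of Ndufs8 (0.21 ± 0.08, limma adjusted p = 0.604). Core values ran from 0.10 for Ndufs1 to 0.21 for Ndufs7, accessory values from 0.03 for Ndufa7 to 0.25 for Ndufb4, and assembly values from -0.18 for Ndufaf1 to 0.15 for Ndufaf2.

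**Figure D4:**
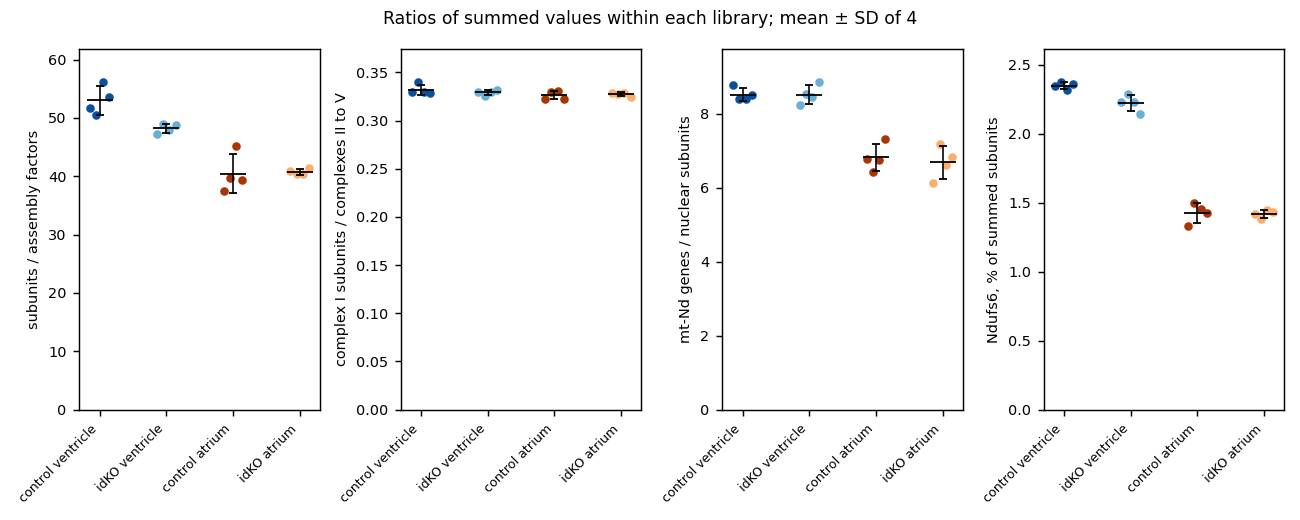
Ratios of summed values in each library (points) with mean and SD of 4 libraries per group, none of which depends on the scaling of a library. Subunits over assembly factors, mt-Nd genes over nuclear subunits and the share of Ndufs6 are higher in ventricles, while complex I over complexes II to V stays between 0.322 and 0.340.

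The 46 genes lie on 17 chromosomes, with at most 6 on any of them (chromosome 17). Ndufs6 lies on the minus strand of chromosome 13, at 73319838 to 73328542 in GRCm38. For 20 members another gene of the table starts within 1000 bases on the opposite strand. Of these partners, 18 were tested, and in control mice 9 were called lower and 1 higher in atria, beside 28.7% and 28.2% of all genes. The median log2 difference was -0.23 for the partners and -0.89 for their members. The partner of Ndufs6 is Mrpl36, a mitochondrial ribosomal protein gene that shares 30 exonic bases with Ndufs6, head to head. Mrpl36 had 14.98 ± 2.82 in control atria and 39.3 ± 3.53 in control ventricles (log2 difference -1.35, adjusted p = 2.4e-08), and 32.1 in idKO ventricles (adjusted p = 0.231). Rps28, a cytosolic ribosomal protein gene that starts 10 bases from Ndufa7, had 101 ± 12.0 and 101 ± 9.26 in the same atria and ventricles, with the authors' scaling.

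Promoter windows of 300 bases (250 before to 50 after the start, RefSeq, GRCm38.p6) were matched for 40 of the 46 genes and for 11549 genes of the table. For 30 of the 40 windows the first 30 bases after the start were found in a GENCODE transcript of the gene. The RefSeq starts lay up to 538 bases (Ndufa13) from the GENCODE start, so positions in the windows are uncertain to that extent. Short motifs were looked for on both strands. The YY1 motif GATGGCG was in 8 of the 40 (20.0%) and in 6.3% of all windows. The NRF1 core GCATGCG was in 5 (12.5%) and 6.1%, and the ERR motif AAGGTCA in 3 (7.5%) and 3.1%. The ETS motif CCGGAAG was in 6 of the 40 and in 16.8% of all windows, and the MEIS motif TGACAG in 20.0% and 16.6%. None of these motifs contains another. The matches are of letters, not measured sites.

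The windows with the YY1 motif are shown because Ndufs6 and Ndufaf7 both hold it. These had the largest and the smallest chamber difference in control mice with the authors' scaling. Each is written 5′ to 3′ on the strand that reads GATGGCG, with the motif in capitals. In 6 of the 8 genes the motif lies 15 to 40 bases after the RefSeq start, on the strand of the gene.
Ndufs6, chr13:73328433-73328458, minus strand: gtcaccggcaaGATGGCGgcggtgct
Ndufs4, chr13:114388045-114388068, minus strand: gcctacaggaaGATGGCGgcggtc
Ndufs7, chr10:80249464-80249492, plus strand: gccgaggccaaGATGGCGgcgctggcggg
Ndufa9, chr6:126849096-126849124, minus strand: ttgtgggagaaGATGGCGgccgccgtccg
Ndufc1, chr3:51408914-51408942, minus strand: ctgcggaacaaGATGGCGccgtccgtagt
Ndufaf8, chr11:120098935-120098963, plus strand: gcagggcccaaGATGGCGgcgccctcgag
Ndufa7, chr17:33824462-33824490, plus strand: ctcgtgtccatGATGGCGgcgatctggcg
Ndufaf7, chr17:78936920-78936948, minus strand: aagacgaggagGATGGCGatgagggcaag

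In the first 6 the letters just before the motif are AA. Ndufa7 holds the motif 96 bases before its start and Ndufaf7 201 bases before, on the opposite strand. With the authors' scaling the transcript of Yy1 itself was 66.7 in control atria and 64.6 in control ventricles (log2 difference 0.05, adjusted p = 0.516). As a share of all reads the median of all genes tested moved to 0.51, so this likeness depends on the scaling.

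With the authors' scaling Esrra, Esrrb and Esrrg were called lower in control atria (log2 differences -0.62, -1.17 and -0.63, limma adjusted p = 2.5e-06, 2.6e-09 and 2.8e-07). As a share of all reads the median of all genes tested moved from 0.02 to 0.51. The size of these differences therefore depends on the scaling, and whether each receptor is called lower may depend on it too. The ERR motif is shown for the 3 genes that hold it, and a link to these receptors was not tested.
Ndufb2, chr6:39592373-39592401, plus strand: ggagcagcagtAAGGTCAgccaagagcac
Ndufb4, chr16:37654406-37654434, minus strand: tcctgagcctgAAGGTCAgactcgagagg
Ndufs5, chr4:123718397-123718425, plus strand: gctacttgagcAAGGTCAcactcgagaaa

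These 3 accessory genes had chamber differences of -0.92, -0.99 and -1.10 in control mice, beside a median of -0.92 for accessory subunits. The other 37 matched windows had no such letters, which says nothing of the factors elsewhere.

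Some members share sequence with other genes, and the strand used in counting is not given in the sources used here. Exons on the opposite strand cover 65.6% of Ndufaf2 (the lincRNA B230220B15Rik), 39.0% of Ndufb6 (Smim27) and 30.0% of Ndufa13 (Tssk6). If the counting ignored the strand, reads from the shared stretches of these pairs cannot be told apart. These partners were listed at 1.24, 6.55 and 0.24 in control ventricles, far below the members. On the same strand, the protein-coding gene Gm49356 of the table shares 201 exonic bases with Ndufb9, 19.5% of the exons of Ndufb9. Processed pseudogenes at 96.6% to 99.4% identity match parts of Ndufs6, Ndufs5, Ndufs3 and Ndufb11 transcripts. None of these pseudogenes is in the table, and the value of these 4 genes, Ndufs6 among them, is uncertain to that extent.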

How the data were processed

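The members and the gene lists were chosen with earlier results of these data known. Per the submitters' processing notes, reads were handled with cutadapt and RSEM 1.3.1 on GRCm38. The deposited table holds a normalised signal: each value the authors gave is a whole read number plus 0.5, over an effective library size per mega read, since 100% of values came out whole within 0.01. How that size was set is not given in the sources used here. It was 0.947, 0.958, 0.639 and 0.687 of the recovered reads in control atria, idKO atria, control ventricles and idKO ventricles, so a value is not a share of the library.

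Genes with 4 libraries of the fit at 1 CPM or more were tested with limma 3.58.1 (R 4.3.3, trended prior, two-sided) on log2(value + 1), with Benjamini-Hochberg adjustment over all genes and a threshold of 0.05. This scale understates changes of low genes. Genotypes were compared within each chamber's 8 libraries, chambers and the interaction over all 16. Alternatives were other pseudocounts, filters and scalings, edgeR 4.0.16, DESeq2 1.42.0, limma voom, a joint fit, the mouse as a block, and single libraries or mice left out. The method was tested on simulated data. Both chambers came from the same animals, and their deviations from the group means correlated at 0.177 to 0.302 over 11802 genes. Replicates differed by more than sampling noise (mean chi-square per gene 8.08 to 16.8).

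Lengths are of the shortest principal GENCODE transcript. The named members were all core subunits and assembly factors, the pair Ndufa4 and Ndufa4l2, called accessory subunits (where many, those with the smallest p and largest change), the extreme member of each class, and the highest and lowest per kilobase. 1 member enters the counts and medians but is not reported here on its own. Near copies were searched with blastn 2.17.0.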

Additional observations from a re-analysis of the deposited data

Results flagged for a closer look

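In 10 of 184 sets of 4 libraries (46 genes in 4 groups), the highest or lowest library stood apart from the other three by more than Dixon's critical value for 4 values; chance gives about 1 in 20 sets. Control ventricle replicate 2 was the high library in 3 of them, with 31.6 for Ndufaf5, 225 for Ndufb6 and 230.2 for Ndufc2. A low idKO atrium replicate 2 gave 143 for Ndufab1 and 276 for Ndufb8. Low values in idKO ventricle replicate 2 were 305 for Ndufs6 and 20.5 for Ndufaf8. The others were Ndufaf3 at 16.8 in control atrium replicate 1, Ndufaf5 at 16.5 in idKO atrium replicate 1 and Ndufaf7 at 30.9 in control atrium replicate 2. Without control replicate 2, or without idKO replicate 2, Ndufs6 was no longer called in ventricles.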

How the results depend on the processing

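The number of members called lower in idKO ventricles was 1 with the authors' scaling and moved to 2 with a filter at 5 CPM, 11 with DESeq2, 3 in the joint fit of 16 libraries, and 0 as a share of all reads or of reads outside mitochondrial genes. It ran from 0 to 4 with 1 replicate left out, 4 being without idKO replicate 4 (Ndufs6, Ndufs1, Ndufa13 and Ndufb9). In the joint fit Ndufs6 was not among the 3 called (Ndufs1, Ndufs8 and Ndufa13). The cause was not tested. As a share of all reads the ventricle medians of core, accessory and assembly genes were -0.106, -0.044 and 0.041, and the core interaction median was 0.098.

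The chamber medians of core, accessory and assembly genes were -0.444, -0.358 and 0.020 in control and -0.372, -0.331 and 0.017 in idKO mice as a share of all reads, and -0.706, -0.619 and -0.230 and -0.594, -0.553 and -0.197 outside mitochondrial genes, where 40 members were called in each. Directions turned, with no call, as a share of all reads: in control mice Ndufa4l2 0.063, Ndufaf2 0.020, Ndufaf3 0.021, Ndufaf5 0.109, Ndufaf7 0.188 and Ndufaf8 0.137, and in idKO mice 0.005, 0.089, 0.044, 0.112, 0.003 and 0.030 in the same order. Both scalings differ by construction in what each library is divided by. The mouse as a replicate block left the count of members called at 46 and 46 for chambers and 0 for the interaction, and changed no call of a member. With each mouse left out, 45 to 46 members were called in control and 44 to 45 in idKO mice. In atria and for the interaction, 0 members were called under each alternative run. Assembly factors have few reads, and their differences are the least precise.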
